A study of Mus musculus with 9 samples.

Results

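The 9 genes described here encode the signalling chains of the T cell receptor (TCR) complex and the enzymes and adaptors that act directly beneath it: Cd3d, Cd3e, Cd3g, Cd247, Lck, Zap70, Lat, Lcp2 and Plcg1. They were listed by symbol for this role and not by a cut on a measured value, though with earlier results of these data known. They are 9 of 24594 genes in the expression table. All 9 passed the filter on low values, an expression of at least 1 RPKM (reads scaled for the exon length of the gene and the read total of the library) in at least 2 libraries, which 11569 genes passed. None of the 9 genes was called different between hosts or between genotypes, where 0.0605% to 1.68% of all tested genes were. With shares this low, 0 of 9 does not set these genes apart from others. The groups differed by at most 1.5-fold in mean RPKM, a ratio reached by Plcg1.

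The αβ TCR binds peptide on MHC molecules but has no signalling tail of its own. It depends on the CD3δ, CD3ε and CD3γ chains and on the ζ chain, the product of Cd247, whose cytoplasmic tyrosines are phosphorylated by the Src family kinase LCK. The kinase ZAP-70 then docks on these tyrosines and phosphorylates the adaptors LAT and the Lcp2 product, on which phospholipase Cγ1, the product of Plcg1, is assembled and activated to start calcium and Ras signalling. In the thymus, the same cascade is used for positive selection and for the deletion of self-reactive cells, which are held to differ in the strength and duration of the signal.

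RNA was sequenced from 9 libraries of semimature CD4 single-positive thymocytes, sorted from thymus as CD4+ CD8- CD69+ Vα2+ Vβ5+ cells in mixed bone marrow chimeras, 4.7 weeks after lethal irradiation and marrow transfer. Every sorted cell carried the OT-II transgene, a class II-restricted TCR for an ovalbumin peptide, and every host also received an excess of non-transgenic wild-type marrow. OT-II donors were Nr4a1+/+ Nr4a3+/+ F1 mice of B6.Cg-Tg(TcraTcrb)425Cbn/J and BoyJ, and the donors labelled DKO were OT-II Nr4a1-/- Nr4a3-/- on C57BL/6. WT hosts were BoyJ by the labels, whereas the study's methods describe WT hosts for chimeras as F1 mice with BoyJ, like the RIPmOVA hosts. RIPmOVA hosts were F1 mice of BoyJ and of the line Tg(Ins2-TFRC/OVA)296Wehi/WehiJ on C57BL/6, in which the rat insulin promoter drives membrane-bound ovalbumin in pancreatic islets and in radioresistant medullary thymic epithelium. WT hosts gave 2 libraries of OT-II and 3 of DKO-labelled cells, and RIPmOVA hosts gave 2 of each. They came from 5 chimeras in all if libraries of the same number and host shared a chimera. Genotype cannot be told apart from donor background, nor, if the labels hold, host from host background. The sort itself required surface TCR, so cells that had lost it were not sampled.

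Recovered depth was 15520000 to 25050000 reads per library, and OT-II replicate 1 from WT hosts was the shallowest. The OT-II pair from WT hosts had the lowest replicate correlation across genes (0.959, against up to 0.986). Gene-level Nr4a1 in RIPmOVA hosts was 260 and 229 RPKM in OT-II and 282 and 235 RPKM in DKO-labelled libraries, and Nr4a3 was 5.66 and 3.72 against 16.5 and 14.1 RPKM. In WT hosts, Nr4a1 was at 60.1 to 87.7 RPKM and Nr4a3 at 0.181 to 0.665 RPKM over both genotypes. Neither was lower under the DKO label, and a sum over all exons of a gene does not check a deletion. Cd4 was at 189 to 241 RPKM and Cd8a at 1.76 to 7.60 RPKM in every library, whereas Cd8b1 was at 54.5 to 96.4 RPKM. Cd69 was at 76.2 to 83.4 RPKM in WT and 113 to 138 RPKM in RIPmOVA hosts, and Cd24a at 19.7 to 32.7 and 46.8 to 75.7 RPKM. Ccr7 and Cd4 were lower in RIPmOVA hosts within each genotype, and Zbtb7b and Itm2a overlapped in OT-II cells. OT-II replicate 1 from RIPmOVA hosts had the highest Cd8a, Arpp21, Rag1 (2.94 RPKM), Rag2 (0.849 RPKM) and Ptcra (2.50 RPKM), but not Cd8b1 or Dntt. The part of these genes in the host differences was not tested. The 7 myeloid and dendritic markers summed to 12.3 and 24.4 RPKM in OT-II cells from RIPmOVA hosts and to 2.31 to 12.2 RPKM in the other libraries, with Lyz2 the highest. Reads on olfactory, vomeronasal and taste receptor genes, taken as background, scaled to library reads (RPM), were 1055 and 1501 RPM in DKO-labelled and 557 and 296 RPM in OT-II libraries from RIPmOVA hosts. In WT hosts the genotypes overlapped in this measure, with 1147 and 518 RPM in OT-II and 513, 1062 and 420 RPM in DKO-labelled libraries, and the highest of these was OT-II replicate 1, the library with the lowest Plcg1 and Zap70.

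The 9 genes lie at 7 places in the GRCm38 genome, and all are protein-coding. Cd3g (Entrez 12502, chromosome 9, 44969572 to 44980431, minus strand), Cd3d (Entrez 12500, chromosome 9, 44981786 to 44987339, plus strand) and Cd3e (Entrez 12501, chromosome 9, 44998740 to 45009627, minus strand) are neighbours. They span 40056 bases, and Cd3g and Cd3d are transcribed away from each other with 1354 bases between them. Chromosome 1 holds Cd247 (Entrez 12503, 165788681 to 165877277, plus strand) and Zap70 (Entrez 22637, 36761798 to 36782818, plus strand), which are far apart. Lck (Entrez 16818) is at 129548344 to 129573641 on the minus strand of chromosome 4, and Lat (Entrez 16797) at 126363824 to 126369570 on the minus strand of chromosome 7. Lcp2 (Entrez 16822) is at 34046920 to 34092295 on the plus strand of chromosome 11, and Plcg1 (Entrez 18803) at 160731300 to 160775760 on the plus strand of chromosome 2. Exons of Cd247, Lcp2 and Plcg1 share 3007, 282 and 379 bases with opposite-strand exons of Pou2f1, 4930469K13Rik and Zhx3, which were at most at 2.60, 1.67 and 2.46 RPKM. Cd3e and Plcg1 also share 135 and 248 exon bases with the antisense genes Gm48719 and Gm27206, and exons of Lck and Lat hold the microRNA genes Mir8119 and Mir7058 on their own strand. Whether counting used strand was not stated, so reads in these shared bases cannot be assigned.

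Promoters were taken as 250 bases before to 50 bases after the first RefSeq transcription start (GRCm38.p6) and were searched on both strands for AAAGGTCA (NBRE, the element that NR4A monomers bind), TGTGGTT (RUNX) and CCGGAAGT (ETS). They were also searched for E-boxes, elements read by E proteins, spelled CAGCTG or, in a second form, CAGGTG. The second form stood in the promoters of 7 of the 9 genes, all but Lat and Lcp2, and in 20.03% of 27025 promoters. The first form stood in those of Cd3g and Lcp2 (16.1% of all promoters) and TGTGGTT in that of Lck (5.37%). AAAGGTCA was in the first promoter of 0 of 9 genes (1.46% of all promoters) and CCGGAAGT in 0 of 9 (4.0%). A later start of Zap70 had AAAGGTCA in its window. A later start of Lck, not printed here, had CAGGTG but not TGTGGTT in its window. These matches are letters, not measured binding sites. The promoters of the neighbouring Cd3 genes are printed because the RNAs of these genes were at near-equal RPKM. Those of Cd247, of Lck, the most abundant of the 9, and of Plcg1, the most variable, are printed for comparison, 5′ to 3′ in the direction of transcription. Capitals mark CAGGTG or the same E-box on the other strand (CACCTG). In Cd3g they also mark the other form of E-box, and in Lck the RUNX letters.
Cd3d, chr9:44981536-44981835, plus strand: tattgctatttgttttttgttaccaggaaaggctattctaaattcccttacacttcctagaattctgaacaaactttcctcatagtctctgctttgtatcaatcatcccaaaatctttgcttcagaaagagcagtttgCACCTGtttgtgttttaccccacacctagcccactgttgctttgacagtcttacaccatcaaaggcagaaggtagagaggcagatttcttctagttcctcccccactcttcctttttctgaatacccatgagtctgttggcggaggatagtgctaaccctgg
Cd3e, chr9:45009562-45009861, minus strand: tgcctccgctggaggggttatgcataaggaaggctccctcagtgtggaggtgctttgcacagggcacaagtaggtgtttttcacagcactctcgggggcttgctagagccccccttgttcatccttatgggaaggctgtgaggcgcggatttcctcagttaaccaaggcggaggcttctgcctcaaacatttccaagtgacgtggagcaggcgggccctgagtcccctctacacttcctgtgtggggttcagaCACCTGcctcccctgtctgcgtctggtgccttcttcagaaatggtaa
Cd3g, chr9:44980382-44980681, minus strand: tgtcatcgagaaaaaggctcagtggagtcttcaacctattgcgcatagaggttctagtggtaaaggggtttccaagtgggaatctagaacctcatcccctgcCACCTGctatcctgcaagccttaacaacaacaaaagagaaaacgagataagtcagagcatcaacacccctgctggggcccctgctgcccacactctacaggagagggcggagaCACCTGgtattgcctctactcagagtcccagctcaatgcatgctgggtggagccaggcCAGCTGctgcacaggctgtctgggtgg
Cd247, chr1:165788431-165788730, plus strand: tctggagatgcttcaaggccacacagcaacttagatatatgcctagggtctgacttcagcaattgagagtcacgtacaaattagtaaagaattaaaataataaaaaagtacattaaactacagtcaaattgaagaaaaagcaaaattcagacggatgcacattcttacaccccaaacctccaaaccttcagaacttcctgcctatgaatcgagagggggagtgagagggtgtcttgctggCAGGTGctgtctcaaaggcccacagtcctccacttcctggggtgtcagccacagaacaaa
Lck, chr4:129573592-129573891, minus strand: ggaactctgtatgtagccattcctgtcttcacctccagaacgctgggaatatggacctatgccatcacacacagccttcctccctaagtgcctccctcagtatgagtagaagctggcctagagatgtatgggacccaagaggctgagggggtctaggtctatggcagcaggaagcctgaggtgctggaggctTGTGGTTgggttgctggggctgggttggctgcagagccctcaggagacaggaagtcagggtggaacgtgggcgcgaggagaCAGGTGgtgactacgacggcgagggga
Plcg1, chr2:160731060-160731359, plus strand: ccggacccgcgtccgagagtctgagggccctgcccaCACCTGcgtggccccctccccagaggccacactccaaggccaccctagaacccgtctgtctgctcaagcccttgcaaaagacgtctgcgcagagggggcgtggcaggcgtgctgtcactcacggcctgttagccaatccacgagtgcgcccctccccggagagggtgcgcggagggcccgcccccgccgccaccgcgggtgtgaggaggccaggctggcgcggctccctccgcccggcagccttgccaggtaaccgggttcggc

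The genes were among the most abundant of the table. The mean RPKM over the 9 libraries was highest for Lck (391 ± 35.9, SD, n = 9), which ranked 17th of all genes. It was followed by Cd3d (294 ± 24.5), Cd3g (271 ± 23.6) and Cd3e (270.5 ± 24.6), the last ranked 29th. Lat (125 ± 13.5), Lcp2 (118 ± 11.6) and Cd247 (92.9 ± 10.4) formed a middle tier by RPKM. Zap70 (49.4 ± 5.50) and Plcg1 (39.2 ± 8.20) were the lowest, and Plcg1 ranked 1001st. Of neighbours in this order, Lck over Cd3d, Cd3e over Lat and Cd247 over Zap70 had ranges that did not overlap over the 9 libraries, with the first of each pair higher in 9 of 9. Cd3d was above Cd3g within each of the 9 libraries although their ranges overlapped, and Lcp2 was above Cd247 in 8 of 9. The order of Cd3g over Cd3e held in 4 of 9 libraries, so these neighbours did not differ beyond their spread. That of Lat over Lcp2 held in 6 of 9, which were all libraries of WT hosts and OT-II replicate 1 from RIPmOVA hosts. Together the 9 genes took 0.633% to 0.759% of the reads of a library. The order between genes depends on the exon lengths used. The deposited lengths exceeded those of GENCODE unevenly, with 8265 against 5329 bases for Cd247 and 3087 against 2767 bases for Lat. Without scaling to length, Cd247 took 647 to 898 RPM, above Lat at 306 to 429 RPM.

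**Figure D1:**
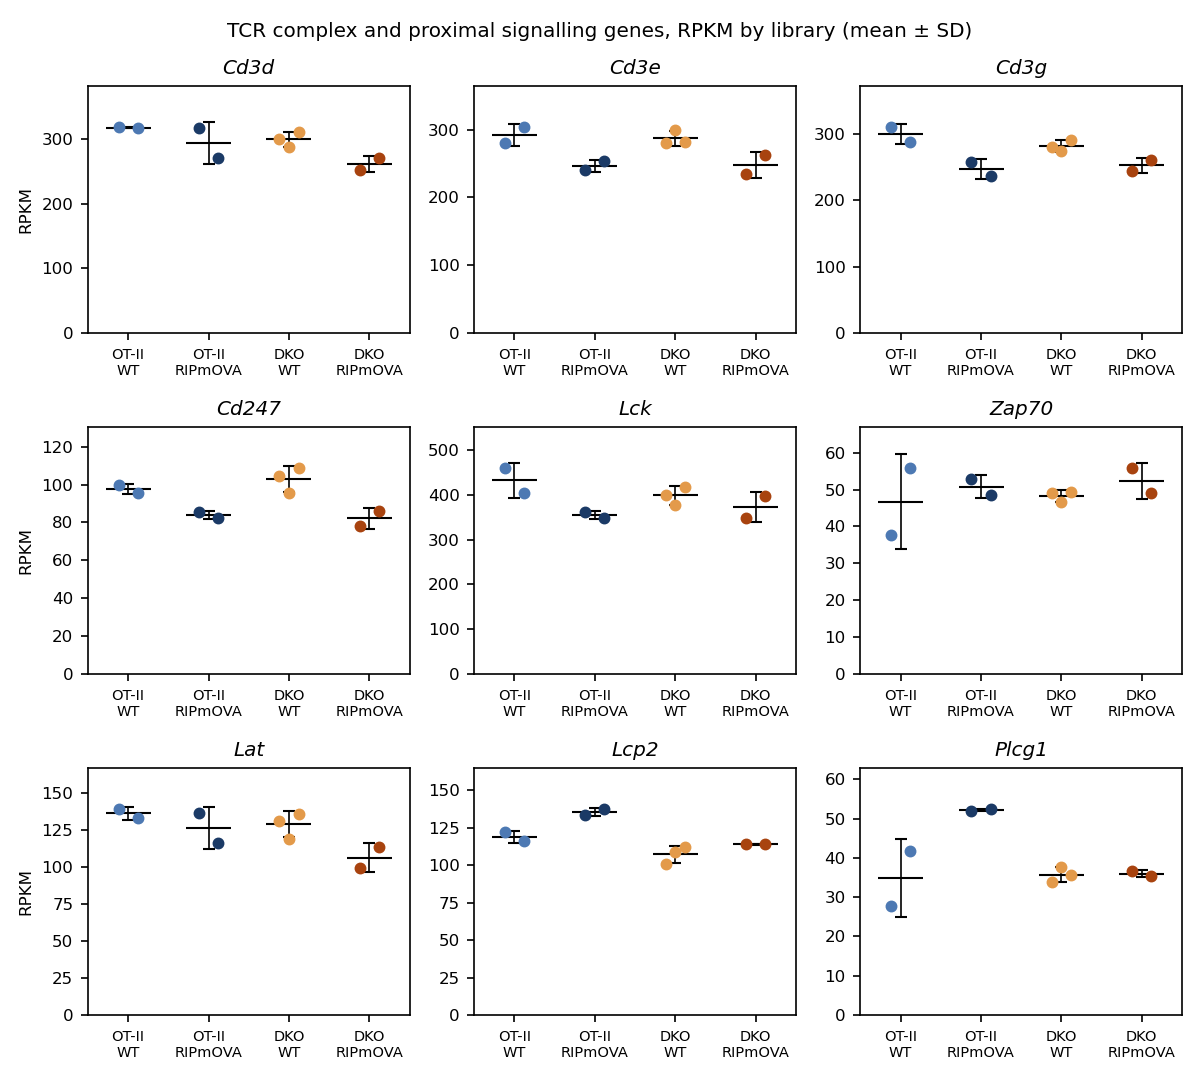
RPKM (vertical axes, from 0) of each of the 9 genes in the OT-II and DKO-labelled libraries of WT and RIPmOVA hosts; points are libraries and bars the group mean ± SD (n = 2, 3, 2 and 2). Plcg1 stands at 52.0 and 52.4 RPKM in OT-II cells from RIPmOVA hosts and at 27.9 to 41.8 RPKM in the other 7 libraries.

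The question for each comparison was whether RNA for the receptor's signalling machinery differed when OT-II cells met ovalbumin in the thymus, or when the cells were labelled as lacking Nr4a1 and Nr4a3. Differences are log2 fold changes on the log2(RPKM + 0.5) scale from limma, with 95% intervals, and p-values are two-sided and adjusted over 11569 genes. A call needed an adjusted p no higher than 0.05 and a log2 fold change of 1 or more in either direction. In these bulk libraries, fewer cells of a type and less RNA per cell cannot be told apart.

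The CD3 chains and the ζ chain had somewhat lower mean RPKM in RIPmOVA than in WT hosts in both genotypes, and none of these differences passed the adjusted test. Cd3e, whose chain pairs with both CD3δ and CD3γ, was 280 and 303 RPKM in OT-II cells from WT hosts and 240.4 and 253 RPKM in OT-II cells from RIPmOVA hosts. In DKO-labelled cells it was 280.2, 300 and 281 RPKM in WT hosts and 234 and 262 RPKM in RIPmOVA hosts. The libraries of the 2 hosts did not overlap in either genotype. The host difference in Cd3e was a log2 fold change of -0.24 (interval -0.45 to -0.04, limma adjusted p = 0.251) in OT-II and -0.21 (-0.40 to -0.03, adjusted p = 0.230) in DKO-labelled cells. Between genotypes, the Cd3e difference was 0.01 in RIPmOVA hosts (interval -0.20 to 0.21) and -0.02 in WT hosts (-0.21 to 0.16).

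Cd3g, which encodes CD3γ, gave the same picture in OT-II cells. It was 310 and 288 RPKM in OT-II cells from WT hosts, 257 and 236 RPKM in those from RIPmOVA hosts, 279, 273 and 290 RPKM in DKO-labelled cells from WT hosts and 244 and 260 RPKM in DKO-labelled cells from RIPmOVA hosts. All RIPmOVA libraries lay below all WT libraries. The log2 fold change between hosts was -0.28 (interval -0.47 to -0.08, limma adjusted p = 0.171) in OT-II and -0.16 (-0.33 to 0.02, adjusted p = 0.327) in DKO-labelled cells. Cd3d, which encodes CD3δ, was 318 and 317 RPKM in OT-II cells from WT hosts, 317 and 271 RPKM in OT-II cells from RIPmOVA hosts, 301, 288 and 310 RPKM in DKO-labelled cells from WT hosts and 253 and 270 RPKM in DKO-labelled cells from RIPmOVA hosts. Here the host groups of OT-II cells overlapped and those of DKO-labelled cells did not. The host differences in Cd3d were -0.12 (-0.33 to 0.10) and -0.20 (-0.39 to 0.00).

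Cd247, whose ζ chain carries most of the tyrosine motifs of the complex, was 99.5 and 95.6 RPKM in OT-II cells from WT hosts and 85.6 and 82.5 RPKM in OT-II cells from RIPmOVA hosts. In DKO-labelled cells it was 105, 95.3 and 109 RPKM in WT hosts and 78.2 and 85.9 RPKM in RIPmOVA hosts. No RIPmOVA library reached a WT library in either genotype. The host difference in DKO-labelled cells was -0.32 (SE 0.08, interval -0.51 to -0.13, limma adjusted p = 0.0834), the smallest adjusted p of the 9 genes in that comparison, and -0.21 (SE 0.09, -0.42 to 0.00, adjusted p = 0.34) in OT-II cells. Without DKO-labelled replicate 2 from WT hosts it was -0.38 with a limma adjusted p of 0.0447, still below the fold needed for a call. The genotype differences in Cd247 were -0.04 in RIPmOVA hosts (interval -0.24 to 0.17) and 0.07 in WT hosts (-0.12 to 0.27).

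The 2 kinases did not share a direction. Lck, which phosphorylates the CD3 and ζ tails, was 459 and 405 RPKM in OT-II cells from WT hosts, 362 and 349 RPKM in OT-II cells from RIPmOVA hosts, 401, 377 and 418 RPKM in DKO-labelled cells from WT hosts and 349 and 397 RPKM in DKO-labelled cells from RIPmOVA hosts. The host groups were apart in OT-II and overlapped in DKO-labelled cells. The log2 fold change of Lck between hosts was -0.28 (interval -0.51 to -0.05, limma adjusted p = 0.236) in OT-II and -0.10 (-0.31 to 0.11, adjusted p = 0.593) in DKO-labelled cells. Zap70, the kinase recruited to those tails, was 37.6 and 55.8 RPKM in OT-II cells from WT hosts, 53.0 and 48.6 RPKM in OT-II cells from RIPmOVA hosts, 49.1, 46.5 and 49.4 RPKM in DKO-labelled cells from WT hosts and 55.7 and 49.0 RPKM in DKO-labelled cells from RIPmOVA hosts. The lowest and the highest of these 9 values came from the same group, OT-II cells of WT hosts. Zap70 differences between hosts were 0.15 (-0.22 to 0.51) and 0.11 (-0.22 to 0.44), with wider intervals than for the CD3 chains.

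The adaptors also went separate ways. Lat, the membrane scaffold, was 139 and 133 RPKM in OT-II cells from WT hosts, 136 and 116 RPKM in OT-II cells from RIPmOVA hosts, 131, 119 and 136 RPKM in DKO-labelled cells from WT hosts and 99.1 and 113 RPKM in DKO-labelled cells from RIPmOVA hosts. The 2 DKO-labelled libraries from RIPmOVA hosts were the lowest of the 9. Their Lat level differed from DKO-labelled cells of WT hosts by -0.28 (interval -0.51 to -0.05, limma adjusted p = 0.206) and from OT-II cells of RIPmOVA hosts by -0.25 (-0.50 to 0.00, adjusted p = 0.240). Lcp2, the cytosolic adaptor that joins LAT to phospholipase Cγ1 and to actin regulators, was 122 and 116 RPKM in OT-II cells from WT hosts and 134 and 137 RPKM in OT-II cells from RIPmOVA hosts. In DKO-labelled cells Lcp2 was 101, 108 and 112 RPKM in WT hosts and 114 and 113.8 RPKM in RIPmOVA hosts. The 2 highest Lcp2 values were those of OT-II cells from RIPmOVA hosts, and the groups were apart in all 4 pairwise comparisons. The host difference in Lcp2 was 0.19 (0.00 to 0.37, limma adjusted p = 0.347) in OT-II and 0.09 (-0.08 to 0.26) in DKO-labelled cells, and the genotype difference was -0.25 (-0.44 to -0.06, adjusted p = 0.138) in RIPmOVA and -0.15 (-0.32 to 0.02, adjusted p = 0.683) in WT hosts. Myeloid cells also use Lcp2, and the summed myeloid markers given above were highest in OT-II cells from RIPmOVA hosts, where Lyz2 was 18.7 and 8.44 RPKM. Of these markers Lyz2 alone was apart in RIPmOVA hosts with OT-II higher. Csf1r, Itgax, Flt3 and Xcr1 were apart with DKO-labelled cells higher, as in Xcr1 with 0.286 and 0.436 RPKM in OT-II and 0.856 and 1.505 RPKM in DKO-labelled cells. The part of myeloid cells in the Lcp2 values was not tested.

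Plcg1, the enzyme that makes the second messengers for calcium and Ras signalling, was the most variable of the 9 genes, with a coefficient of variation of 20.9% over the libraries against 8.33% to 11.2% for the others. It was 27.9 and 41.8 RPKM in OT-II cells from WT hosts, 52.0 and 52.4 RPKM in OT-II cells from RIPmOVA hosts, 33.9, 37.7 and 35.6 RPKM in DKO-labelled cells from WT hosts and 36.6 and 35.4 RPKM in DKO-labelled cells from RIPmOVA hosts. Both OT-II libraries of RIPmOVA hosts were above the other 7 libraries. The log2 fold change between hosts was 0.60 (SE 0.16, interval 0.25 to 0.96, limma adjusted p = 0.107) in OT-II cells and 0.01 (SE 0.15, -0.32 to 0.34, adjusted p = 0.972) in DKO-labelled cells. The difference between these host effects, the interaction, was -0.59 (SE 0.22, interval -1.08 to -0.11) with an unadjusted p of 0.0223 and a limma adjusted p of 0.506. In RIPmOVA hosts the DKO-labelled cells differed from OT-II by -0.53 (SE 0.16, -0.89 to -0.17, limma adjusted p = 0.114), and in WT hosts by 0.06 (-0.27 to 0.39). The spread within groups came largely from OT-II cells of WT hosts, whose SD was 9.88 RPKM against 0.301 to 1.87 RPKM in the other groups. These values depended on which of those 2 libraries was kept. Without OT-II replicate 1 from WT hosts, the host effect in OT-II cells was 0.32 (limma adjusted p = 0.327) and the interaction -0.30 (adjusted p = 0.991), and without replicate 2 they were 0.89 (adjusted p = 0.00602) and -0.88 (adjusted p = 0.0315). With either OT-II replicate from WT hosts left out the genotype difference in RIPmOVA hosts stayed at -0.53, with limma adjusted p of 0.0186 without replicate 1 and 0.0189 without replicate 2. With the sensory receptor background as a covariate that difference was -0.33 (limma adjusted p = 0.788). This background was higher in both DKO-labelled libraries of RIPmOVA hosts, so such a fit cannot fully separate it from genotype. None of these values reached 1 in either direction.

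**Figure D2:**
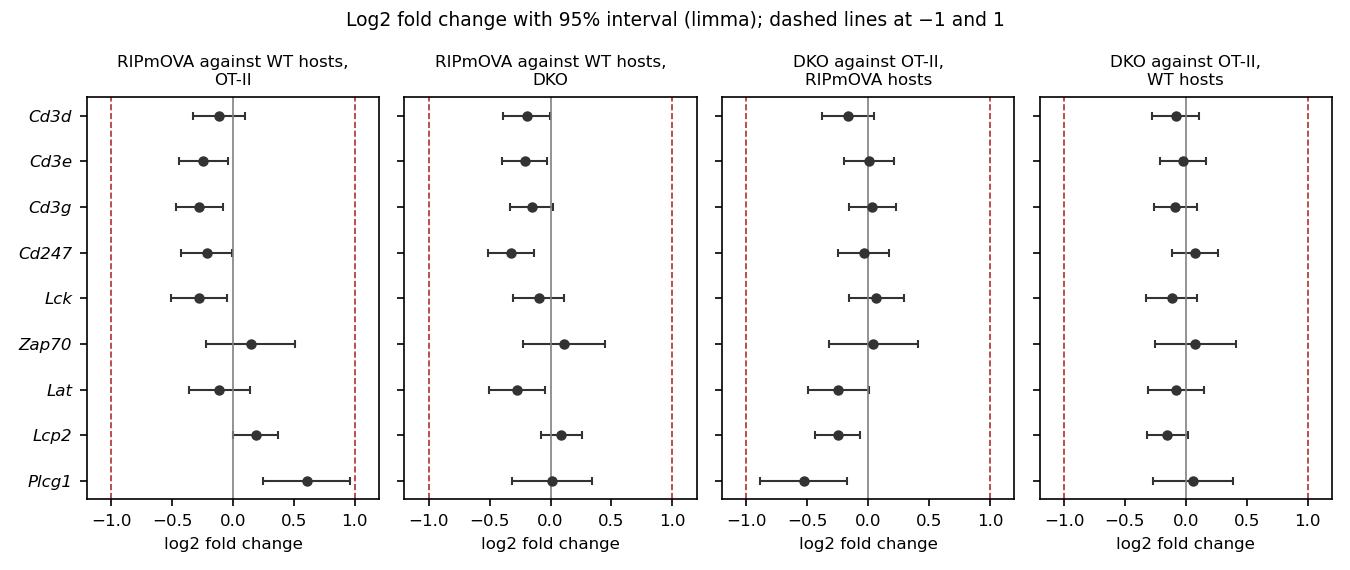
Log2 fold change (horizontal axes) of the 9 genes in the 4 pairwise comparisons; points are limma estimates, bars 95% intervals, and dashed lines the fold of a call. All intervals lie between the dashed lines, and the intervals nearest to them belong to Plcg1, at 0.96 in OT-II cells between hosts and at -0.89 between genotypes in RIPmOVA hosts.

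Between RIPmOVA and WT hosts in OT-II cells, 0 of 9 genes were called by limma, where 1.23% of all tested genes were, and 0 of 9 passed the adjusted p alone, where 1.89% did. An unadjusted p under 0.05 was reached by 14.3% of all genes and by 6 of the 9: Cd3e, Cd3g, Cd247 and Lck with lower and Lcp2 and Plcg1 with higher RPKM in RIPmOVA hosts. Over the alternatives this count ran from 1 to 6 of 9. The 6 were also the genes whose host groups did not overlap, which held for 41.6% of all genes. In DKO-labelled cells limma called 0 of 9 (1.68% of all genes) and 0 of 9 passed the adjusted p (3.35% of all genes), and 4 had an unadjusted p under 0.05 (17.6% of all genes, and 1 to 5 of the 9 over the alternatives). There the host groups were apart for Cd3d, Cd3e, Cd3g, Cd247 and Lat, lower in RIPmOVA hosts, and for Lcp2, higher, against 40.0% of all genes. Over the 9 genes the log2 fold changes had a median of -0.12 for OT-II and -0.16 for DKO-labelled cells, where that of all tested genes was -0.02 and 0.03. Limma on recovered reads with voom weights likewise called 0 of 9 in every comparison.

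Between DKO-labelled and OT-II cells in RIPmOVA hosts, 0 of 9 genes were called by limma (1.07% of all genes) and 0 passed the adjusted p (2.21% of all genes), and Lcp2 and Plcg1 had an unadjusted p under 0.05, as did 21.4% of all genes. Groups were apart for 4 genes, Cd3d, Lat, Lcp2 and Plcg1, all lower in DKO-labelled cells, where 59.0% of all genes had groups apart. In WT hosts 0 of 9 were called (0.0605% of all genes), 0 passed the adjusted p (0.0692% of all genes) and 0 had an unadjusted p under 0.05 (7.89% of all genes), and Cd3d and Lcp2 were apart, both lower in DKO-labelled cells, against 20.8% of all genes. The interaction called 0 of 9, and 0 passed its adjusted p, with 0.0173% of all genes by either rule, and Plcg1 alone of the 9 had an unadjusted p under 0.05 (9.32% of all genes). All 9 intervals lay within 1 log2 unit of 0 in each pairwise comparison. In WT hosts all 9 also lay within 0.5, the widest bounds being -0.32 for Lck and 0.41 for Zap70. The same held for 8 of 9 genes between genotypes in RIPmOVA hosts and for 6 and 7 of 9 between hosts in OT-II and DKO-labelled cells. Rescaling by median of ratios, which moved the median of all genes to -0.17 between genotypes in RIPmOVA hosts and to -0.13 between hosts in DKO-labelled cells, put all 9 genes below 0 in both, with medians of -0.27 and -0.33, and called 0 of them.

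Ratios within a library do not depend on its scaling. RNA for the ζ chain kept near to a constant proportion of RNA for CD3ε, with Cd247 at 0.315 to 0.386 of Cd3e in RPKM over the 9 libraries and no group set apart. Lcp2 was 0.878 and 0.874 of Lat in OT-II cells from WT hosts and 0.982 and 1.18 in those from RIPmOVA hosts. In DKO-labelled cells Lcp2 was 0.771, 0.912 and 0.826 of Lat in WT hosts and 1.15 and 1.01 in RIPmOVA hosts. The ratio of Lcp2 to Lat was thus higher in every RIPmOVA library than in every WT library. In 3 of 4 RIPmOVA libraries it was above 1, a level that depends on the exon lengths used. Plcg1 was 0.201 and 0.315 of Lat in OT-II cells from WT hosts, 0.382 and 0.451 in OT-II cells from RIPmOVA hosts, 0.259, 0.317 and 0.262 in DKO-labelled cells from WT hosts, with 0.369 and 0.313 in DKO-labelled cells from RIPmOVA hosts. Its host groups were apart in OT-II and overlapped in DKO-labelled cells. These 2 ratios to Lat were singled out after their values were seen and were given no test.

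**Figure D3:**
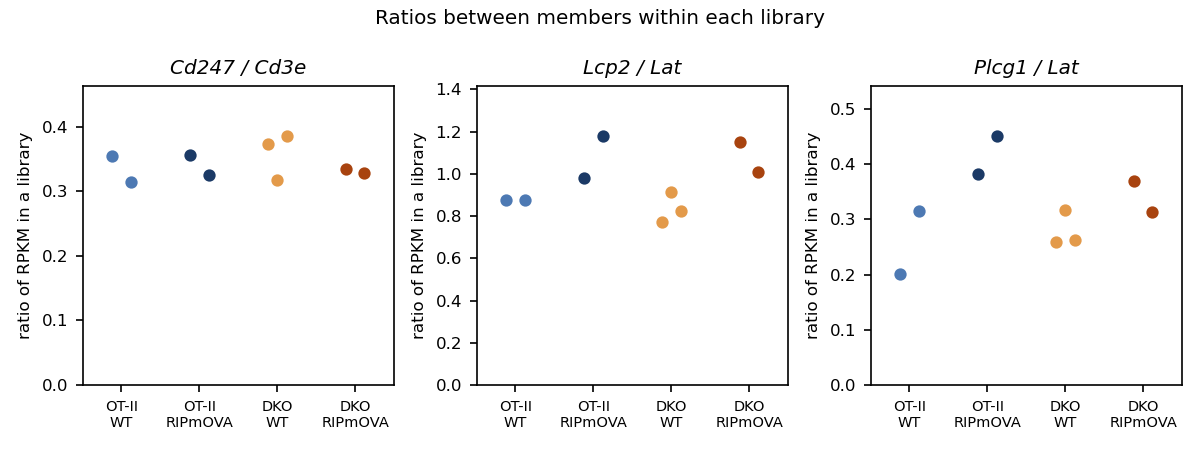
Ratio of the RPKM of Cd247 to Cd3e, Lcp2 to Lat and Plcg1 to Lat (vertical axes, from 0) in each of the 9 libraries, by group, with DKO for DKO-labelled cells. Cd247 to Cd3e runs from 0.315 to 0.386 with no group apart, and Lcp2 to Lat is at 0.982 to 1.18 in RIPmOVA and 0.771 to 0.912 in WT hosts.

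Over the 9 libraries, which include both hosts and genotypes and share one scaling to total reads, Cd3d followed Lat (Pearson r = 0.98 of log2 values) and Lck followed Cd3g (0.94). Cd3g followed Cd247 (0.85), Cd3d (0.77) and Cd3e (0.75), and the neighbours Cd3d and Cd3e were less alike (0.53). Plcg1 was nearest to Lcp2 (0.65) and Zap70 (0.58) and opposed to Lck (-0.75). As no member passed the adjusted test, likeness to a member was looked up for Lck alone, and Tyw1 (0.955), Limd2 (0.952) and Surf2 (0.950) had the most similar pattern over the 9 libraries. These correlations are descriptions over few libraries in 4 groups.

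Other genes of the pathway were taken from a list of 30 co-receptors, kinases, adaptors and downstream mediators. Trac, Trbc1 and Trbc2, the constant regions of the TCR itself, had no entry matched here, and 26 genes were tested. Between genotypes in RIPmOVA hosts 3 of the 26 passed limma's adjusted p, all lower in DKO-labelled cells, where 2.21% of all tested genes passed. Trat1, a transmembrane adaptor that associates with the TCR complex, was 37.1 and 33.9 RPKM in OT-II cells and 17.2 and 16.4 RPKM in DKO-labelled cells of RIPmOVA hosts. In WT hosts it was 33.2 and 35.7 RPKM in OT-II and 23.4, 27.1 and 29.5 RPKM in DKO-labelled cells. Trat1 was therefore below the OT-II libraries in every DKO-labelled library of either host. It was the 1 gene of the list called, at -1.06 on the log2 scale (SE 0.12, limma adjusted p = 0.00395) in RIPmOVA hosts. In WT hosts the difference was -0.37 (SE 0.11, adjusted p = 0.380), and the interaction was -0.69 (adjusted p = 0.326). The call in RIPmOVA hosts was lost without OT-II replicate 1 from RIPmOVA hosts, where the fold change was -0.99. With the sensory receptor background as a covariate, itself apart between genotypes in these hosts, the fold change stayed at -1.03 but the call was lost (limma adjusted p = 0.124).

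Cd28, the co-stimulatory receptor, was 166.1 and 166.3 RPKM in OT-II and 123 and 122 RPKM in DKO-labelled cells from RIPmOVA hosts, groups that were well apart. Its log2 fold change was -0.44 (SE 0.08, limma adjusted p = 0.0295), with an adjusted p of 0.0200 with each chimera as a random block and 0.0591 as a fixed block. In WT hosts Cd28 was also lower under the DKO label, with 157 and 147 RPKM in OT-II and 112, 117 and 123 RPKM in DKO-labelled cells. That difference was -0.37 (limma adjusted p = 0.129), and the Cd28 interaction was -0.07. Nck2, an adaptor to the actin cytoskeleton, was 20.1 and 17.0 RPKM in OT-II and 13.3 and 12.6 RPKM in DKO-labelled cells from RIPmOVA hosts (log2 fold change -0.50, adjusted p = 0.0496, with 0.0329 for a random and 0.0861 for a fixed chimera block). In WT hosts Nck2 was 17.1 and 16.1 RPKM in OT-II and 12.8, 13.6 and 13.5 RPKM in DKO-labelled cells (-0.31, limma adjusted p = 0.408). Between hosts, 1 of 26 genes passed in each genotype, against 1.89% of all genes in OT-II and 3.35% in DKO-labelled cells. In OT-II cells it was Txk, a Tec family kinase, with 34.5 and 31.7 RPKM in WT and 21.1 and 22.5 RPKM in RIPmOVA hosts (-0.59, SE 0.12, adjusted p = 0.0466). In DKO-labelled cells it was Trat1 (-0.64, SE 0.11, adjusted p = 0.0140). In WT hosts between genotypes, and for the interaction, limma passed 0 of 26, against 0.0692% and 0.0173% of all genes. Its unadjusted p was under 0.05 there for 5 of 26 and 3 of 26, against 7.89% and 9.32% of all genes. Between hosts this held for 6 of 26 in OT-II and 10 of 26 in DKO-labelled cells, against 14.3% and 17.6%. Between genotypes in RIPmOVA hosts it held for 7 of 26, against 21.4%. Apart from the calls, each adjusted p passed by a gene of this list or of the inhibitors below was lost when any of 3 to 7 of the 9 libraries was left out. The list's median log2 fold change was -0.04 between hosts in OT-II, -0.17 between hosts in DKO-labelled cells, -0.08 for DKO-labelled against OT-II cells of RIPmOVA hosts and -0.10 for those of WT hosts.

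Inhibitors that act on the same proximal steps were taken from a list of 14 genes, all tested. Between hosts in DKO-labelled cells 5 of 14 rose and 2 fell by limma's adjusted p in RIPmOVA hosts, where 3.35% of all tested genes passed. A limma unadjusted p under 0.05 was reached by 11 of 14, against 17.6% of all genes. Cblb, a ubiquitin ligase that restrains TCR signalling, was 6.07, 5.58 and 4.81 RPKM in WT and 15.7 and 10.1 RPKM in RIPmOVA hosts, and was the 1 gene called (log2 fold change 1.13, SE 0.18, adjusted p = 0.0102). Without DKO-labelled replicate 1 from RIPmOVA hosts the Cblb difference was 0.83 (limma adjusted p = 0.0573), and with the sensory receptor background as a covariate it was 1.10 (adjusted p = 0.104). The others higher in RIPmOVA hosts included the transmembrane adaptor Lax1 (0.91, adjusted p = 0.0248), the phosphatase Ptpn22 (0.57, adjusted p = 0.0269) and the Src-like adaptor Sla (0.51, adjusted p = 0.0307). Csk, the kinase that puts the inhibitory phosphate on LCK, was 39.2, 41.2 and 39.3 RPKM in WT and 23.8 and 26.3 RPKM in RIPmOVA hosts (-0.66, SE 0.13, limma adjusted p = 0.0249), and Sla2, a relative of Sla, was also lower (-0.43, adjusted p = 0.0274). In OT-II cells Cblb (6.57 and 5.78 RPKM in WT, 12.9 and 11.8 RPKM in RIPmOVA hosts) rose by 0.95 (limma adjusted p = 0.0445). Sla2 was lower by a log2 fold change of -0.49 (adjusted p = 0.0336), and the other 12 did not pass. Of all genes 1.89% passed there, and 4 of 14 inhibitors had a limma unadjusted p under 0.05, against 14.3% of all genes. Between genotypes in RIPmOVA hosts Cd6, a receptor whose tail docks adaptors of this pathway, was the 1 of 14 that passed (2.21% of all genes). It was at 197 and 181 RPKM in OT-II and 134 and 112 RPKM in DKO-labelled cells (-0.62, SE 0.11, limma adjusted p = 0.0224). A limma unadjusted p under 0.05 was reached there by 9 of 14, against 21.4% of all genes. In WT hosts Cd6 was likewise lower, with 141 and 138 RPKM in OT-II and 96.9, 87.9 and 99.7 RPKM in DKO-labelled cells. That difference was -0.56 (limma adjusted p = 0.0990), and the Cd6 interaction was -0.06. Limma passed 0 of 14 between genotypes in WT hosts (0.0692% of all genes), with 2 of 14 at an unadjusted p under 0.05 (7.89% of all genes). For the interaction it passed 0 of 14 (0.0173% of all genes), with 5 of 14 at an unadjusted p under 0.05 (9.32% of all genes). No inhibitor's host effect was thus shown to differ between genotypes. The median log2 fold change of the inhibitors was 0.08 between hosts in OT-II and 0.37 in DKO-labelled cells.

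Receptor chains, kinases and adaptors that do the same work in other leukocytes were low. Cd79a, a signalling chain of the B cell receptor, was the highest, at 2.31 to 6.33 RPKM. The 11 listed counterparts, among them Cd79b, Syk, Lyn and Blnk, summed to 5.06 to 13.4 RPKM in a library, and 5 of 11 stayed below 1 RPKM in all libraries. Of the 5 tested, 0 passed limma's adjusted p in any comparison, where at most 3.35% of all genes did. Up to 2 of 5 had an unadjusted p under 0.05, between hosts in DKO-labelled cells (17.6% of all genes). The lowest value of any of the 9 TCR genes in any library was 27.9 RPKM, for Plcg1.

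**Figure D4:**
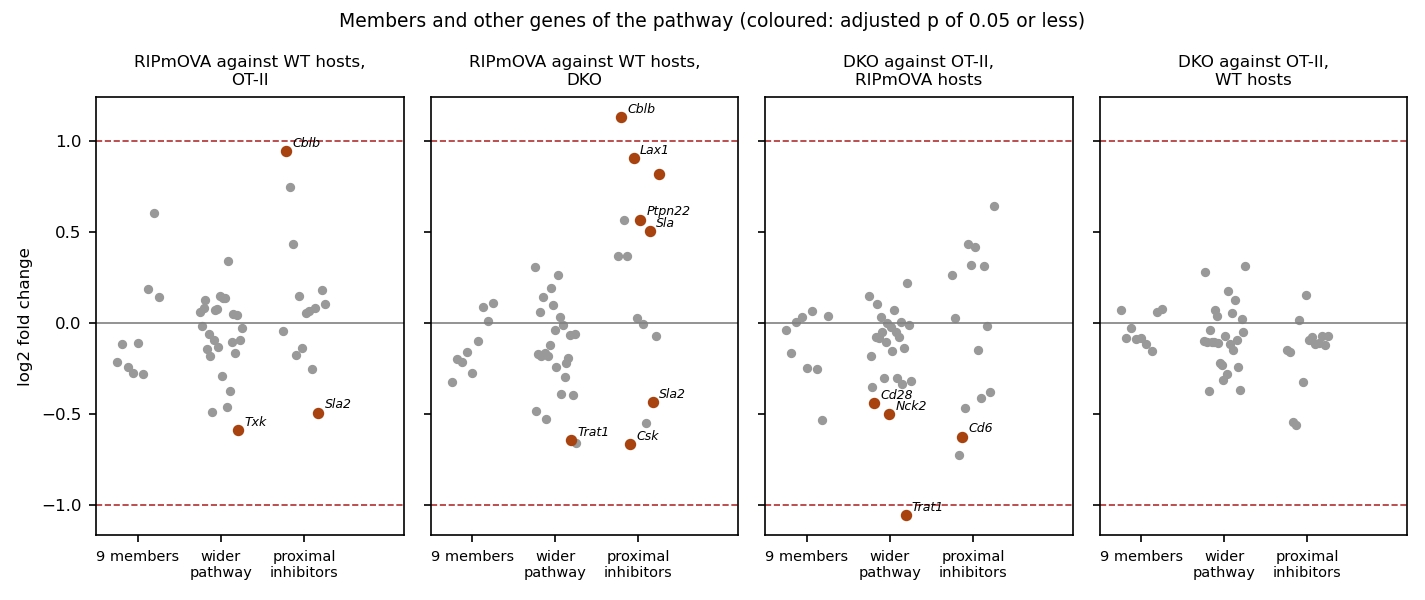
Log2 fold change (vertical axis) of the 9 genes, 26 other genes of the pathway and 14 proximal inhibitors in the 4 pairwise comparisons; points are genes, coloured where limma's adjusted p was 0.05 or less, and dashed lines the fold of a call. The 9 genes have no coloured point in any panel, and Cblb (1.13) and Trat1 (-1.06) are the points beyond the dashed lines.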

How the data were processed

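Per the labels, polyA RNA of sorted cells was turned into cDNA by SMART-seq v4 and into libraries by Nextera XT. Alignment was by STAR to mm10 with GENCODE vM17, followed by removal of duplicates. For each Entrez gene the authors counted exonic reads and deposited them as RPKM, scaled to exon length and library reads. Versions of STAR and of the duplicate remover, and the use of strand, were not given in the sources used here. The authors tested with DESeq2, which was not used here since the deposited values are RPKM. Reads recovered from them were fitted with voom as an alternative.

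The table was read with Python 3.11.15, numpy 2.4.6 and pandas 2.3.3. Steps between low RPKM values gave the reads of each library (100% of low values were whole within 0.05 reads), and 3 reads equalled 0.120 to 0.193 RPKM for a gene of 1 kb, for counting error only. Genes at 1 RPKM or more in 2 libraries (11569) were fitted as log2(RPKM + 0.5) by group means over all 9 libraries with limma 3.58.1 in R 4.3.3 (eBayes with trend), adjusted by Benjamini-Hochberg. The fit was tested on simulated data. Drawing used matplotlib 3.10.9.

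The members and lists were chosen with earlier results of these data known. Every member was named, and of each other list the genes called or with an adjusted p of 0.05 or less, up to 6 per comparison. OT-II and DKO-labelled libraries of the same number and host were taken to come from the same chimera, a pairing read from the replicate numbers. Their deviations from the group means correlated at 0.01 and -0.24 in WT hosts and at -0.08 and -0.08 in RIPmOVA hosts. Alternatives were a pseudocount of 0.1 or of 1, a filter at 5 RPKM or none, rescaling by median of ratios or quantiles, no trend, a covariate for sensory receptor reads, voom, blocks, fits to the compared libraries alone and leaving out each library. Positions are from GENCODE vM21 on GRCm38, the build that mm10 names.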

Additional observations from a re-analysis of the deposited data

How the results depend on the processing

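No member was called under any of the 22 settings beside the one reported, and limits are set by groups of 2 or 3 libraries. Of 531 member values under settings that kept all libraries, 510 kept their direction, and of 405 with a library left out 22 turned and 5, for Plcg1 and Cd247, passed the adjusted p. A library left alone in its group is then assumed to vary like the others. One value of the 531 passed the adjusted p, Plcg1 between genotypes in RIPmOVA hosts fitted to those libraries alone (-0.53, adjusted p = 0.0384).

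Median-of-ratios rescaling turned Zap70 (-0.063), Lcp2 (-0.087) and Plcg1 (-0.16) between hosts in DKO-labelled cells, Cd3e (-0.23), Cd3g (-0.20), Lck (-0.17) and Zap70 (-0.19) between genotypes in RIPmOVA hosts, and Cd3e (-0.21), Cd3g (-0.12) and Lck (-0.056) in the interaction, where it moved the median of all genes to -0.19. Quantile rescaling turned Cd3d between hosts in OT-II (0.064), Cd3e (-0.00030), Cd247 (0.011) and Lck (-0.11) between genotypes in RIPmOVA hosts, Cd3e (0.00014) and Cd3g (0.011) between genotypes in WT hosts and Cd3e in the interaction (-0.00044). The sensory receptor covariate turned Zap70 between hosts in OT-II (-0.015), Cd3e (-0.0055) and Cd3g (-0.028) between genotypes in RIPmOVA hosts and Zap70 in the interaction (0.31). The causes were not tested.

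With a library left out, the values that turned ranged, between genotypes in RIPmOVA hosts, from -0.10 to 0.032 for Cd247, -0.072 to 0.086 for Cd3e, -0.027 to 0.092 for Cd3g, -0.027 to 0.16 for Lck and -0.051 to 0.13 for Zap70. Between genotypes in WT hosts they ranged from -0.081 to 0.033 for Cd3e, -0.23 to 0.35 for Plcg1 and -0.21 to 0.36 for Zap70. Between hosts they ranged in OT-II from -0.23 to 0.0031 for Lat and -0.14 to 0.43 for Zap70, and in DKO-labelled cells from -0.024 to 0.050 for Plcg1. In the interaction they ranged from -0.19 to 0.031 for Cd3d, -0.049 to 0.11 for Cd3e and -0.32 to 0.25 for Zap70.

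With the chimera as a replicate block, 0 of 9 members were called in each comparison. Plcg1 between genotypes in RIPmOVA hosts was -0.53 with an adjusted p of 0.0825 as a random block and 0.104 as a fixed block. Of the genes of the other lists that had passed, a fixed chimera block ended the adjusted p of Cd28 and Nck2 and of no other, and a random one ended none. A block on the number across hosts, which labels do not tie to a shared animal, left Plcg1 between hosts in OT-II at 0.60 (adjusted p = 0.155), and ended 10 of the 11 passes between hosts in the other lists, all but Cblb in DKO-labelled cells (adjusted p = 0.0289). Over all tested genes this block took the passes from 219 to 95 in OT-II and from 387 to 150 in DKO-labelled cells. Its same-numbered deviations correlated at 0.10 to 0.23.

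Alternatives for genes of the other lists were chosen after the data were seen. With the sensory receptor covariate none of the 15 gene and comparison pairs that had passed kept an adjusted p of 0.05 or less. In RIPmOVA hosts the genotypes did not overlap in this background, so the fit cannot fully separate the covariate from genotype there. Over all tested genes this covariate took the passes from 256 to 18 between genotypes in RIPmOVA hosts. Between hosts it took them from 387 to 95 in DKO-labelled and from 219 to 98 in OT-II cells. The loss was thus not particular to the listed genes. Directions held in all 15 under every setting run.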
